A study of Homo sapiens with 6 samples.

Results

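The striatins and the core members of the STRIPAK complex were followed at the RNA level in cells labelled HGC-27, an established human cell line from an undifferentiated gastric cancer. The group was chosen by name and holds 9 of the 58233 gene rows of the deposited table: the striatins STRN, STRN3 and STRN4, the adaptors MOB4, STRIP2 and PDCD10, and the kinases STK24, STK25 and STK26. All 9 rows passed the filter of at least 1 TPM in at least 3 libraries that 13004 rows met. STRIP2 met it with the fewest libraries possible, 2 controls and 1 other. Cells had been transfected for 72 h with RNAiMAX, a lipid carrier, together with a mixture of siRNAs named for STRN3 (siSTRN3) or with a negative control siRNA (siNC). Each treatment had 3 libraries. Both groups share the line, the medium and the carrier, and no untransfected cells were analysed here. The transfection is transient and used a mixture, so the effects of single siRNAs cannot be told apart. Separate cultures are not named in the labels, and a p-value here reflects the scatter among these 6 libraries, which could be technical.

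STRIPAK (striatin-interacting phosphatase and kinase) is an assembly built on the striatins, which act as regulatory B subunits of protein phosphatase 2A. The striatins hold the phosphatase close to germinal centre kinases, which PDCD10 tethers to the complex, while MOB4 and the STRIP proteins complete the core. In human cells STRIPAK is known for dephosphorylating the Hippo kinases MST1 and MST2 (genes STK4 and STK3), which restrain the growth regulators YAP and TAZ.

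The levels are TPM, a measure corrected for transcript length and scaled to a common total per library. TPM does not retain read counts, and the depth is unknown. The ribosomal RNA repeat took 17.0% ± 0.728 of the summed TPM in the siNC libraries and 43.0% ± 0.666 in those labelled siSTRN3 (SD, n = 3 each). Its part in the results was not tested. The median tested row was lower by a log2 fold change of -0.57 on the deposited scale. Changes are therefore given relative to the median gene, after each library was multiplied by 1 factor that made the medians equal, on the scale log2(rescaled TPM + 1), which understates the change of low rows. The factors were 0.809 to 0.826 for siNC and 1.27 to 1.30 for siSTRN3. In bulk RNA, a lower level in every cell and fewer cells with the transcript cannot be told apart. As deposited, the mesenchymal marker set VIM, CDH2 and FN1 summed to 2990 to 3066 TPM in siNC and 1723 to 1758 TPM in siSTRN3, and after rescaling to 2428 to 2532 and 2218 to 2254. Nearly all of that sum was VIM, at a mean deposited level of 3011 TPM in siNC and 1737 TPM in siSTRN3. FN1 had means of 7.16 and 4.74 TPM. CDH2, at means of 0.01 and 0.037 TPM, did not pass the filter. The epithelial set of 5 genes (EPCAM, CDH1, KRT8, KRT18, KRT19) summed to only 1.32 to 1.93 and 0.96 to 1.42 deposited TPM, and none passed the filter. Of the 6 gastric mucosa markers, MUC5AC, TFF1, TFF2 and GKN1 were listed at 0 in every library, so the markers of gastric mucosa give no check of the tissue label. The 5 fibroblast markers summed to 695 to 702 deposited TPM in siNC and 381 to 401 in siSTRN3, and after rescaling to 568 to 574 and 497 to 509. Within that set COL1A1 turned from below the controls as deposited to above them after rescaling, at a mean of 102 in siNC and 138 in siSTRN3. The 5 leukocyte markers summed to 2.40 to 2.71 and 1.27 to 1.94 deposited TPM, and to 1.97 to 2.19 and 1.65 to 2.49 after rescaling. The 4 endothelial markers summed to at most 0.02 deposited TPM. The fibroblast sum thus lay far above the epithelial sum in both groups, although PDGFRB was low, at a mean of 1.16 deposited TPM in siNC. The markers do not bear out an epithelial identity. The name HGC-27 rests on the labels, and the identity of the cells was not tested. The part of the marker differences between the groups in the results was not tested.

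The striatins are paralogues, and their coding sequences bear on whether reads or a short RNA could tell them apart. Between the longest coding sequences in GENCODE release 29 (GRCh38), STRN3 was identical to STRN at 70.1% of aligned bases and to STRN4 at 64.2%. No stretch of 19 bases was shared between any pair of striatins. The longest stretch that STRN3 shares with STRN, its closer paralogue, is shown in capitals, with 12 flanking bases on each side in lower case. The STRN3 and STRN stretch of 18 bases lies in exon 14 of both transcripts, at chr14:30906938-30906955 and chr2:36857917-36857934, minus strand.
STRN3: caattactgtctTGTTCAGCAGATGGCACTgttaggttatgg
STRN: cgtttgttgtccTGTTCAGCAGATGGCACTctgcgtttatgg
Of the 3940 windows of 31 bases in the longest STRN3 transcript, 12 (0.305%) also occur in a transcript of another gene. None of the 3598 windows of STRN4 or the 3258 of STK26 does. For STRN, STRIP2, PDCD10, STK24 and STK25 the share was 0.982% to 3.76%, and for MOB4 it was 20.8%.

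The 9 RNAs spanned a wide range of levels in the control cells. STK25 was the highest of the 9, at 81.0 ± 1.20 TPM (SD, n = 3), percentile 90.6 of tested rows by mean siNC level. STRN4, at percentile 80.3, was the highest striatin. PDCD10, STK26, STK24 and MOB4 followed at percentiles 73.1, 69.5, 66 and 57.6. STRN3 and STRN were low, at percentiles 27.2 and 25.5, and their ranges over the 3 controls overlapped. STRIP2 was last, at percentile 2.19. Every other pair of neighbours in this order had ranges that did not overlap. The order was the same in the libraries labelled siSTRN3, but there PDCD10 and STK26 overlapped, while STRN3 lay above STRN in all 3, by 1.83-fold between the means.

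**Figure D1:**
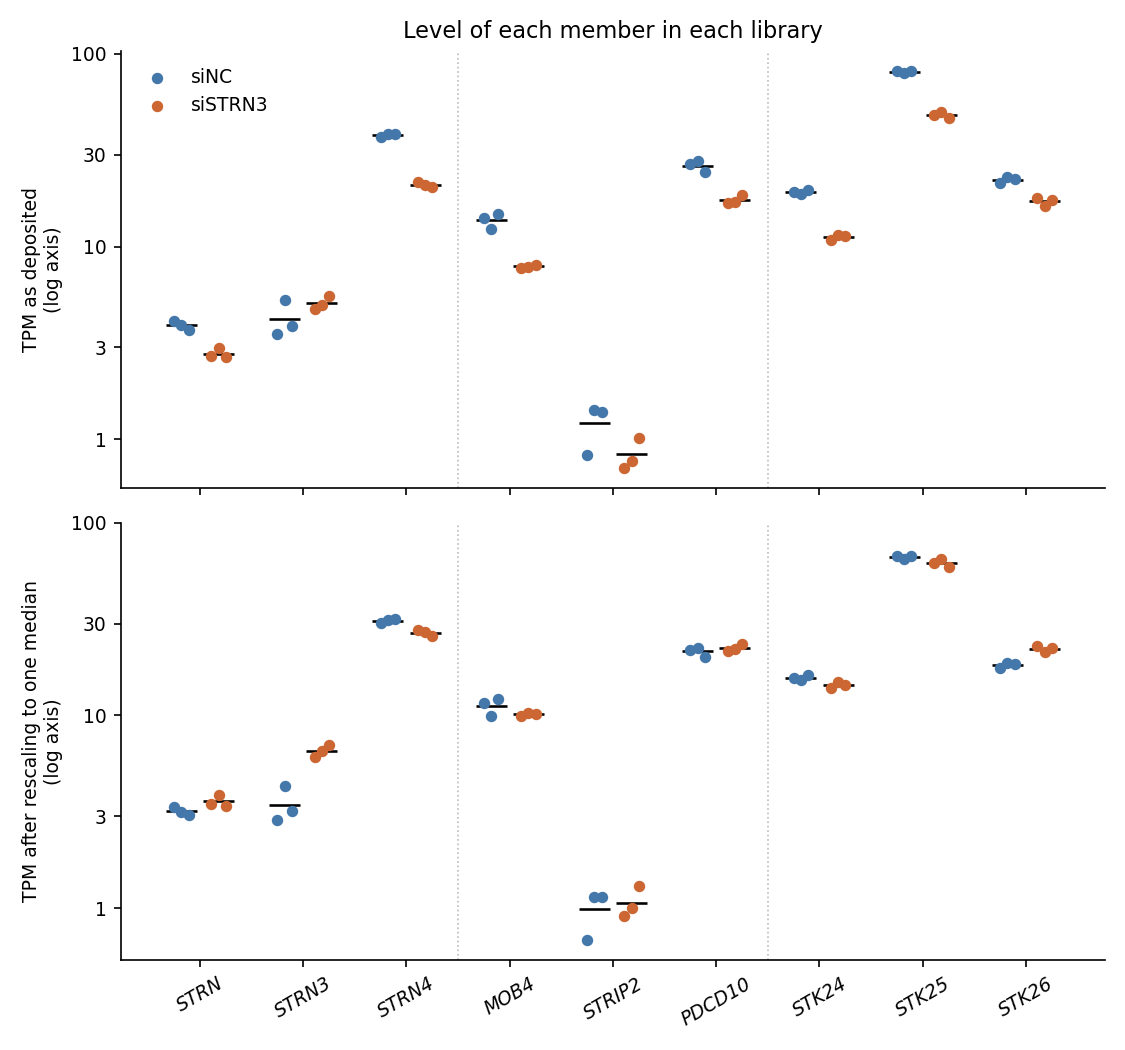
TPM of the 9 members in each library on log axes, as deposited (upper panel) and after rescaling to equal medians (lower panel), with siNC and siSTRN3 as separate colours and a line at each group's mean. STK25 lay highest and STRIP2 lowest in both groups, and the STRN3 points of the groups overlapped as deposited (3.51 to 5.30 and 4.76 to 5.56) but not after rescaling.

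STRN3 encodes striatin-3, the subunit named on the siRNA label, and in the libraries labelled siSTRN3 its RNA was not reduced. The gene lies at chr14:30893799-31026401 on the minus strand (GRCh38). Deposited levels were 3.51, 5.30 and 3.85 TPM in siNC and 4.76, 5 and 5.56 TPM in siSTRN3. The groups overlapped through the second control library. After rescaling, the levels were 2.88, 4.29 and 3.18 in siNC and 6.10, 6.51 and 7.07 in siSTRN3. All 3 siSTRN3 libraries then lay above all 3 controls. STRN3 rose relative to the median gene by a log2 fold change of 0.78 (SE 0.13, 95% interval 0.47 to 1.08). This is 1.71-fold in rescaled TPM + 1, and the mean rescaled levels themselves were 3.45 in siNC and 6.56 in siSTRN3. STRN3 passed the threshold, with a limma adjusted p of 0.00896. On the deposited scale its log2 fold change was 0.24 and missed the threshold (limma adjusted p = 0.142). The exact 2-sided permutation test gave p = 0.1 after rescaling, the smallest that 3 against 3 allows, and p = 0.3 on the deposited scale. The measured STRN3 level thus goes against the siSTRN3 label, and every direction given here is between libraries labelled siSTRN3 and libraries labelled siNC. Protein was not measured in these files.

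The start of STRN3 faces that of AP4S1, a subunit of the AP-4 adaptor complex that sorts cargo at the trans-Golgi network. Their nearest starts lie 264 bases apart on opposite strands. The RefSeq promoter table (GRCh38.p14) gives the STRN3 window chr14:31026330-31026629, minus strand, from 250 bases before the start to 50 after it. It is printed because this is the member that rose most, with the GC box GGGCGG, on either strand, in capitals.
STRN3 promoter: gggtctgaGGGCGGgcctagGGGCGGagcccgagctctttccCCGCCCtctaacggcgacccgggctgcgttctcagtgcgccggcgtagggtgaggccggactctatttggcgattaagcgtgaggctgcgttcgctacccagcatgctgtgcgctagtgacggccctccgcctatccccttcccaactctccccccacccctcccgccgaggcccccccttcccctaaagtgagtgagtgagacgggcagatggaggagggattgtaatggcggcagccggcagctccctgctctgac
The window is 67.0% G or C, against a median of 58.7% over 35116 windows of the same length. It holds 3 copies of GGGCGG, with no copy of the TEAD core GGAATG, of CCAAT or of the ETS core CGGAAG on either strand. Copies of these 4 motifs could overlap one another in a search, and none does here. Of all windows, 45% hold GGGCGG, 34.6% CCAAT, 19.5% CGGAAG and 14.0% GGAATG. Windows were found for 8 of the 9 members, 14 windows in all, and 10 of them hold GGGCGG, 4 CCAAT, 5 CGGAAG and 0 GGAATG. These matches describe letters and not binding. AP4S1 had 2.25, 1.74 and 3.11 TPM in siNC and 1.07, 1.03 and 1.35 TPM in siSTRN3, so its deposited level was lower in all 3. Its log2 fold change relative to the median gene was -0.23 and missed the threshold (limma adjusted p = 0.341).

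STRN4 encodes zinedin, the most abundant striatin RNA in this line. Its deposited levels were 37.0, 38.4 and 38.5 TPM in siNC and 21.7, 20.9 and 20.3 TPM in siSTRN3. After rescaling they were 30.3, 31.1 and 31.8 against 27.8, 27.2 and 25.9, and the groups did not overlap on either scale. STRN4 fell relative to the median gene by 0.20 on the log2 scale (SE 0.044), to 0.871 of the control value in rescaled TPM + 1. It passed the threshold, with a limma adjusted p of 0.0223. This call was lost (limma adjusted p 0.0530 to 0.0762) without siNC library 1, 2 or 3 or without siSTRN3 library 3.

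STRN encodes striatin, which gave the family its name. It had 4.11, 3.92 and 3.69 TPM in siNC and 2.71, 2.96 and 2.68 TPM in siSTRN3, with no overlap. After rescaling the siSTRN3 libraries, at 3.47, 3.86 and 3.41, lay above the controls, at 3.37, 3.17 and 3.05, by small margins. The log2 fold change relative to the median gene was 0.13 (SE 0.082, 95% interval -0.071 to 0.32) with a limma adjusted p of 0.316. On the deposited scale the sign turned, to -0.37 (limma adjusted p = 0.00402).

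A share within a library does not depend on the library's scale, so the makeup of the striatin pool could be set side by side without rescaling. STRN3 made up 7.87%, 11.1% and 8.37% of the summed striatin TPM in siNC and 16.3%, 17.4% and 19.5% in siSTRN3. All siSTRN3 values lay above all controls, and the means were 9.12% ± 1.75 and 17.7% ± 1.59 (SD, n = 3 each), 8.60 percentage points apart. STRN4 held 82.4% ± 1.55 in siNC and 72.6% ± 1.61 in siSTRN3, and was the largest part in each of the 6 libraries. STRN held 8.49% ± 0.639 and 9.65% ± 0.540. The ratio of STRN4 to STRN3 was 9.26 ± 1.76 and 4.13 ± 0.447. The summed striatin level after rescaling was 37.7 ± 1.02 and 37.1 ± 0.642, a difference within the SD of siNC. These shares are values with no test.

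**Figure D2:**
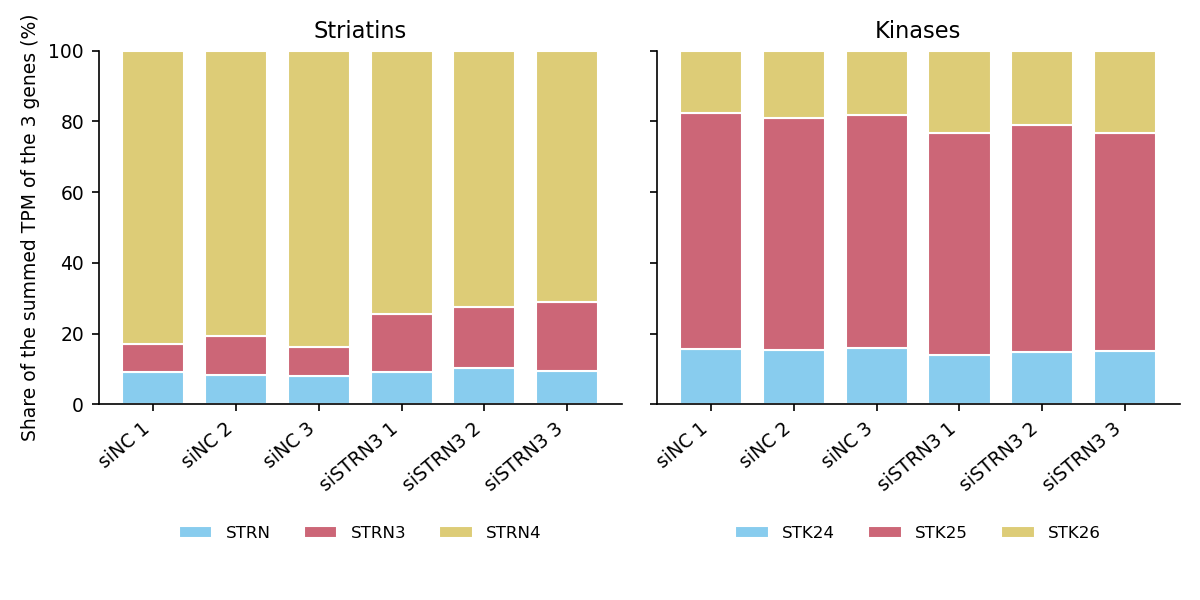
Share of each striatin in the summed striatin TPM, and of each kinase in the summed kinase TPM, in percent for each of the 6 libraries. The STRN3 share was 7.87% to 11.1% in siNC and 16.3% to 19.5% in siSTRN3, and the STK26 share 17.5% to 19% and 21.0% to 23.3%.

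None of the adaptor RNAs passed the threshold relative to the median gene. MOB4, a Mps one binder family protein that joins striatins and kinases, had 14.1, 12.3 and 14.7 TPM in siNC and 7.77, 7.86 and 8.03 TPM in siSTRN3. Its log2 fold change was -0.13 (SE 0.079, 95% interval -0.32 to 0.060), with a limma adjusted p of 0.286. The gene at chr2:197515571-197553699, plus strand, shares 698 exonic bases with HSPE1-MOB4, a read-through transcript that starts at HSPE1, the mitochondrial co-chaperonin gene. The read-through row had 2.44, 1.99 and 1.36 TPM in siNC and 1.98, 2.46 and 2.41 TPM in siSTRN3. It rose by a log2 fold change of 0.62 relative to the median gene (limma adjusted p = 0.0291), but on the deposited scale its value was 0.18 and missed the threshold (limma adjusted p = 0.311). The read-through row took 12.4% ± 3.42 and 22.4% ± 1.86 of the summed pair. How the authors divided shared reads between these rows is not given in the sources used here, so both rows are uncertain. Summed, the pair had a log2 fold change of 0.031, opposite in sign to MOB4 alone.

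PDCD10, also called CCM3, is mutated in familial cerebral cavernous malformations and ties the kinases to the striatins. It had 26.8, 27.8 and 24.3 TPM in siNC and 16.8, 17.0 and 18.5 TPM in siSTRN3. Relative to the median gene its log2 fold change was 0.057 (SE 0.060, 95% interval -0.086 to 0.20), with a limma adjusted p of 0.536. On the deposited scale it was -0.56. PDCD10 starts 829 bases from SERPINI1, which encodes neuroserpin and was too low for the test, at 0.65 to 1.34 TPM in siNC and 0.24 to 0.66 TPM in siSTRN3. STRIP2, a scaffold protein of the complex, had 0.83, 1.41 and 1.38 TPM in siNC and 0.71, 0.77 and 1.02 TPM in siSTRN3, with overlap. Its log2 fold change of 0.064 had an SE of 0.14, larger than itself, and it changed sign with the scale (-0.26 deposited) and without siNC library 1 or siSTRN3 library 3.

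The kinases STK24 (MST3), STK25 (SOK1) and STK26 (MST4) form the GCKIII subfamily, each of which binds PDCD10. STK26 was the member of the 3 that passed the threshold. It had 21.4, 23.1 and 22.3 TPM in siNC and 17.9, 16.3 and 17.5 TPM in siSTRN3. After rescaling the controls had 17.6, 18.7 and 18.4 and the siSTRN3 libraries 22.9, 21.2 and 22.3, with no overlap on either scale. STK26 rose relative to the median gene by a log2 fold change of 0.27 (SE 0.050), or 1.20-fold in rescaled TPM + 1. Its limma adjusted p was 0.0133, but on the deposited scale the sign turned, to -0.35. The call was narrowly lost without siNC library 1 (limma adjusted p = 0.0520).

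STK25, the highest RNA of the 9, had 81.9, 79.7 and 81.4 TPM in siNC and 48.5, 49.9 and 46.4 TPM in siSTRN3. Its log2 fold change relative to the median gene was -0.095 (SE 0.045, limma adjusted p = 0.175). STK24 had 19.2, 18.8 and 19.6 TPM in siNC and 10.8, 11.5 and 11.4 TPM in siSTRN3, and a log2 fold change of -0.12 relative to the median gene (SE 0.052, limma adjusted p = 0.150). With TPM over protein-coding rows alone STK24 passed the threshold as lower, at -0.17 (limma adjusted p = 0.0497). Exons of STK24 overlap those of FARP1, a RhoGEF gene on the other strand, over 7634 bases, 63.2% of the merged STK24 exons. FARP1 rose relative to the median gene by 0.28 on the log2 scale (limma adjusted p = 0.0132), but on the deposited scale the sign turned, to -0.33 (limma adjusted p = 0.00111). STK25 overlaps FARP2 over 1094 bases (14.4%), and FARP2 had a log2 fold change of -0.055. The counting strand is not given in the sources used here, so reads in these stretches cannot be told apart and the STK24 and STK25 values are uncertain, while STK26 had no such overlap.

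STK24 shares a longer run with each of the other kinases than any striatin pair does. Its run with STK26 is printed here because the STK26 and STK24 values moved apart. STK24 and STK26 are identical at 70.7% of aligned coding bases and share a run of 23 bases, in capitals, in STK24 exon 3 at chr13:98482293-98482315, minus strand, and STK26 exon 5 at chrX:132063439-132063461, plus strand (GRCh38).
STK24: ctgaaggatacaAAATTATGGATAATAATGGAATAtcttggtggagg
STK26: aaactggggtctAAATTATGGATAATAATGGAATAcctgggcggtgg
STK24 and STK25 share a run of 20 bases, and STK25 and STK26 one of 11.

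Within the summed kinase TPM, STK26 took 17.5%, 19% and 18.1% in siNC and 23.2%, 21.0% and 23.3% in siSTRN3, again without overlap. STK25 held 66.1% ± 0.687 and 62.9% ± 1.33, and STK24 15.7% ± 0.211 and 14.6% ± 0.555 (SD, n = 3 each). The kinase sum divided by the striatin sum was 2.66 ± 0.10 in siNC and 2.66 ± 0.0328 in siSTRN3. The kinase sum divided by PDCD10 was 4.68 ± 0.361 and 4.41 ± 0.300. The striatin sum divided by MOB4 was 3.39 ± 0.428 and 3.66 ± 0.0945. Each of these 3 ratios differed between the groups by less than the SD of the siNC libraries. These ratios are values with no test.

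Counted together, 2 of the 9 members rose (STRN3 and STK26) and 1 fell (STRN4) relative to the median gene, and 6 did not pass the threshold. Over all 13004 tested rows, 11.0% were called higher and 10.4% lower, 21.3% in all, and 3 of 9 members is no result about the group beside that share. The members' median log2 fold change was 0.057, against -0.0062 for all tested rows. Groups did not overlap for 5 members after rescaling, with STRN, STRN3 and STK26 above and STRN4 and STK24 below. Among all tested rows, 20.7% lay above and 21.8% below without overlap, 42.4% in all. On the deposited scale 7 members were called lower and 0 higher, where 80.8% of rows were called lower and 1.01% higher, 81.8% in all. Deposited levels lay below the controls without overlap for 7 members and for 82.2% of rows. STRN3 and STRIP2 were the 2 members not called there.

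**Figure D3:**
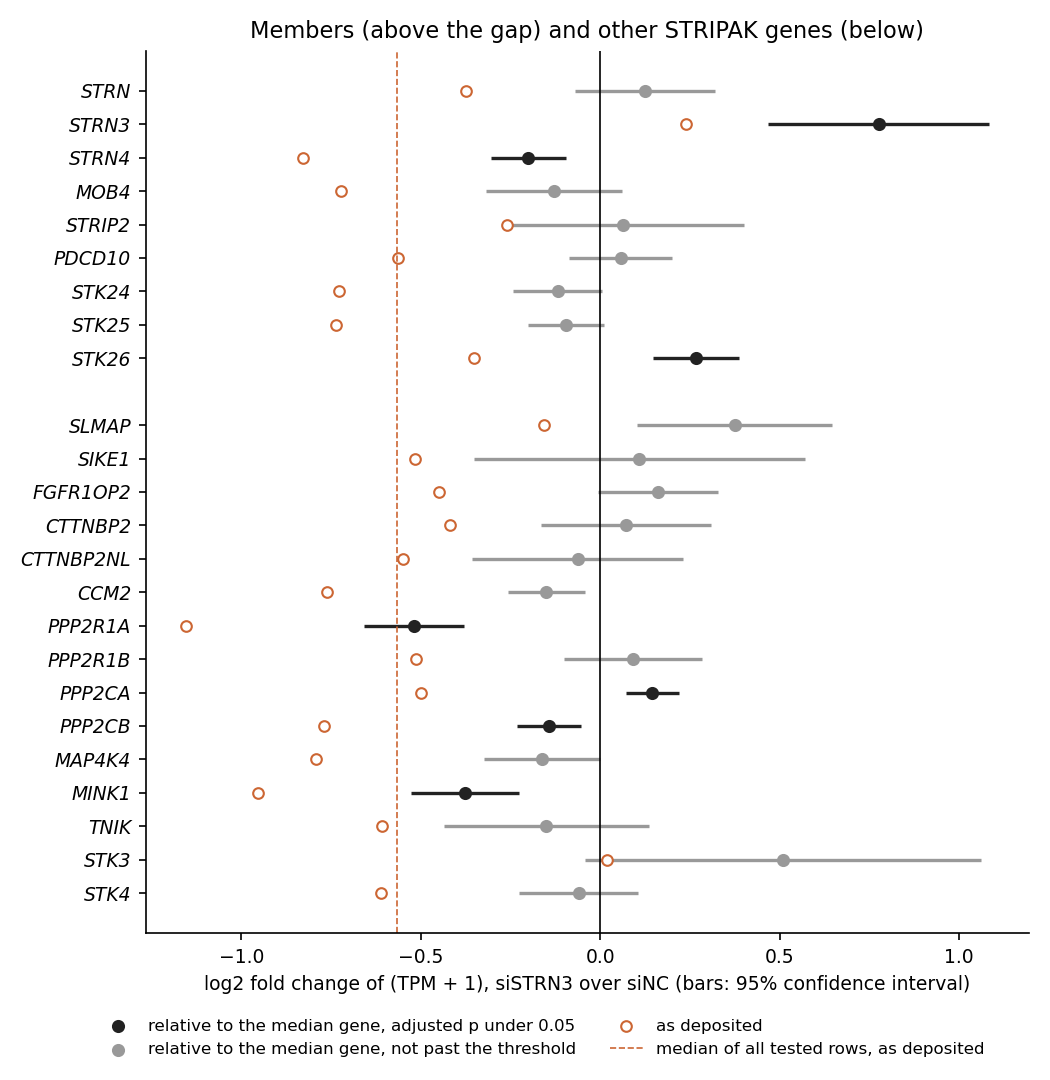
Log2 fold change, siSTRN3 over siNC, of the 9 members and, below the gap, of other STRIPAK genes, relative to the median gene (filled, with 95% intervals, black where past the threshold) and as deposited (open). The dashed line is the deposited median of all tested rows, -0.57. Relative to the median gene STRN3 (0.78), STK26 (0.27) and STRN4 (-0.20) passed the threshold, and the values of STRN, STRIP2, PDCD10 and STK26 change sign as deposited.

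**Figure D4:**
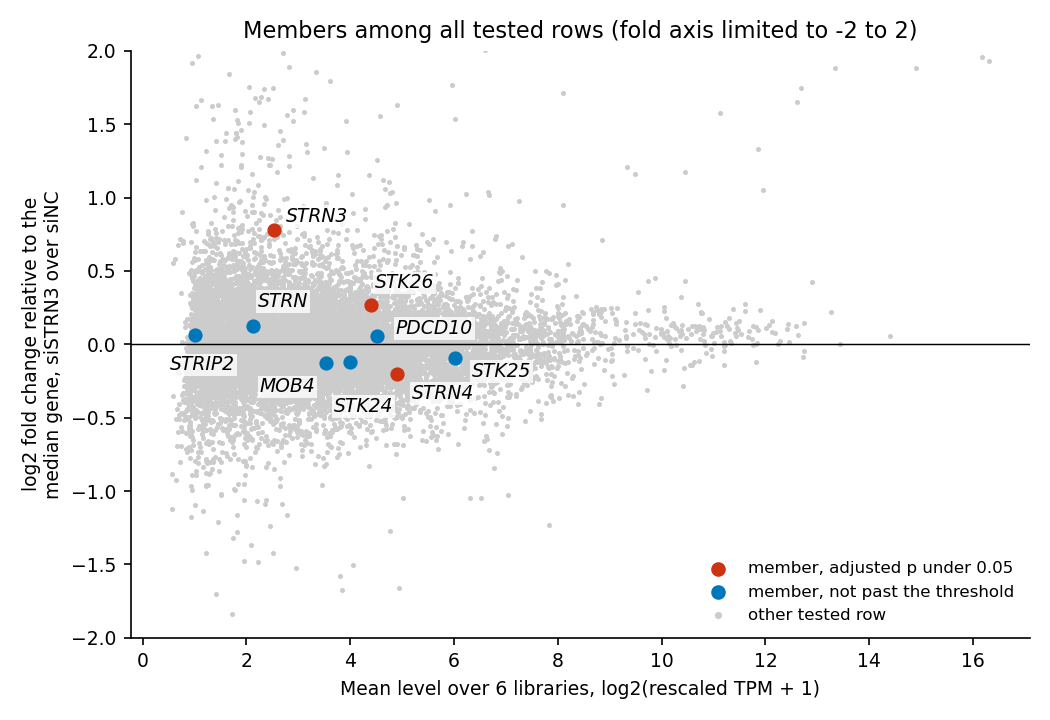
Log2 fold change relative to the median gene against mean level for all tested rows, with the 9 members marked. The fold axis ends at -2 and 2, which leaves out 36 rows, none of them a member, and STRN3 at 0.78 is the member farthest from 0.

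The phosphatase and the other STRIPAK partners were taken from a list of 17 genes, of which 16 passed the filter on low values and TRAF3IP3 did not. Of the 16, 1 rose and 3 fell relative to the median gene, beside 11.0% of all tested rows called higher and 10.4% lower, so the count is near the background. Their median log2 fold change was -0.062, against -0.0062 for all tested rows. PPP2R1A, the main scaffold A subunit of protein phosphatase 2A, had 67.3, 69.9 and 64.8 TPM in siNC and 27.4, 31.2 and 30.6 TPM in siSTRN3. It fell by 0.52 on the log2 scale (SE 0.059, limma adjusted p = 0.00251), and the groups lay far apart on both scales. MINK1, a germinal centre kinase of the MAP4K group, fell by 0.38 (limma adjusted p = 0.00906). The catalytic subunits went opposite ways by small amounts: PPP2CB fell by 0.14 (limma adjusted p = 0.0390), and PPP2CA rose by a log2 fold change of 0.15 (limma adjusted p = 0.0202), the sign of which turned on the deposited scale, to -0.50. Leaving out 1 library at a time lost the PPP2CA call in 4 of 6 fits and the PPP2CB call in all 6, with limma adjusted p up to 0.0668 and 0.121, whereas those of PPP2R1A and MINK1 held without each library in turn. The ratio of PPP2R1A to the striatin sum was 1.46 ± 0.0511 in siNC and 1.03 ± 0.0790 in siSTRN3, with no overlap. SLMAP, a tail-anchored protein through which STRIPAK meets the Hippo kinases, had a log2 fold change of 0.37 relative to the median gene. It missed the threshold (limma adjusted p = 0.0596), and had -0.16 as deposited. CCM2 missed the threshold as narrowly, at -0.15 (limma adjusted p = 0.0594), with -0.76 as deposited. In all, 12 of the tested partners did not pass, among them STK3 and STK4, the Hippo kinases on which STRIPAK acts, with log2 fold changes of 0.51 (SE 0.23) and -0.060 (SE 0.070). The STK3 value rests largely on siSTRN3 library 2: rescaled levels were 2.13, 2.58 and 2.88 in siNC and 3.01, 6.27 and 3.32 in siSTRN3, and without that library the log2 fold change was 0.25. On the deposited scale it was 0.018.

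The authors' deposited table gives adjusted p-values under 0.05 for 3 of the 9 members, against 31.7% of tested rows. In the authors' deposited table these are 9.5e-14 for STRN3, 4.93e-05 for STK26 and 0.000743 for STRN4, the same 3 that passed relative to the median gene. By p-value STRN3 ranks at 353 of the 13004 tested rows in the authors' deposited table, and STK26 and STRN4 at 1477 and 2038. The authors' deposited table marks none of the 9 with its own yes call, which 57 rows carry, and it gives no fold change or direction.

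The 3 tested protein-coding rows whose pattern over the 6 libraries was most like that of STRN3 were CCNT2, MCUB and ELAC2. Likeness was the root mean square difference of log2(rescaled TPM + 1), centred on each row's mean, and was 0.081 for CCNT2, 0.095 for MCUB and 0.095 for ELAC2. CCNT2, which encodes cyclin T2 of the elongation factor P-TEFb, had rescaled levels of 2.98, 3.82 and 3.01 in siNC and 5.72, 6.31 and 5.90 in siSTRN3. Like STRN3, all 3 rows were highest among the controls in the second siNC library. Their selection on these same 6 libraries favours such a match, which is given only as a description.

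**Figure D5:**
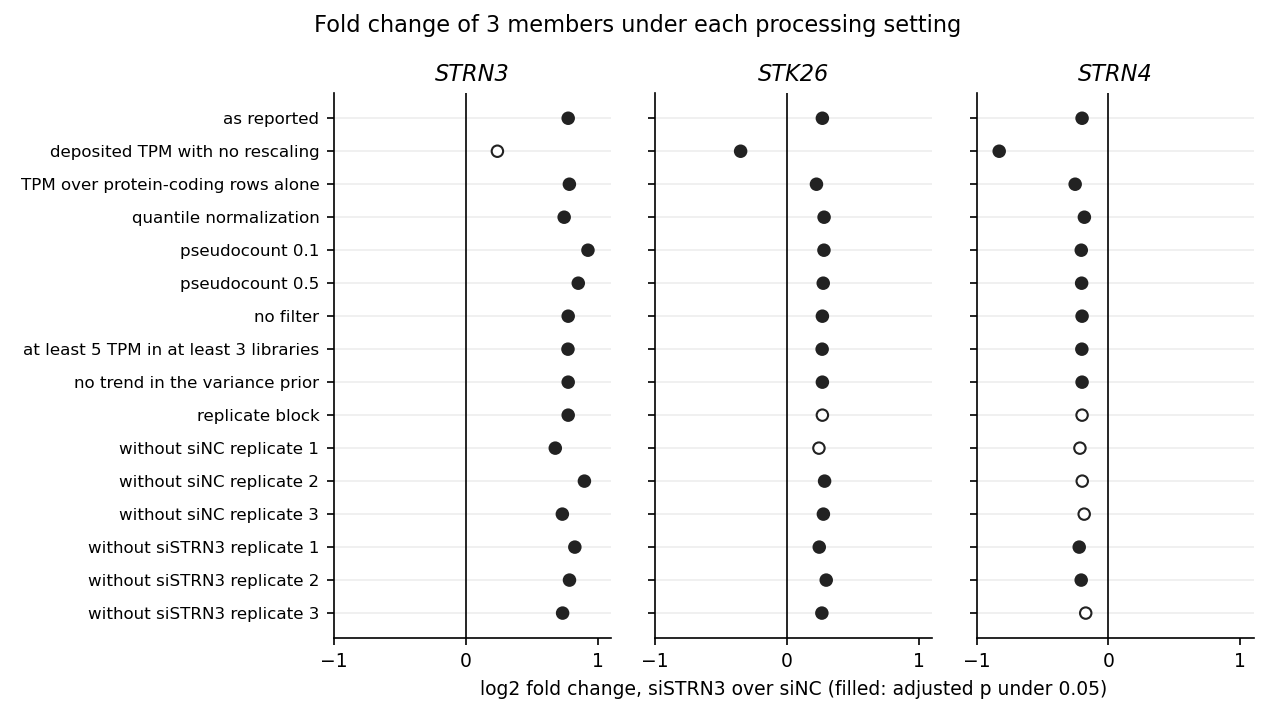
Log2 fold change, siSTRN3 over siNC, of STRN3, STRN4 and STK26 as reported and under each processing setting, with filled points for an adjusted p under 0.05. STRN3 stayed above 0 in every setting shown (0.24 to 0.93), STRN4 below 0, and STK26 turned below 0 on the deposited scale.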

How the data were processed

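Per the labels' protocols, RNA of HGC-27 cells was extracted with TRIzol 72 h after transfection and made into Illumina libraries, 3 per treatment. The titles give groups and replicate numbers. The authors deposited TPM per library for 58233 gene rows, with 2 further rows that name no gene and were left out. Per the file headers, the authors also gave raw and adjusted p-values there. The submitters' processing notes name HISAT2, Cufflinks, RSEM and the build GRCh38.p10 without roles. Annotation, strand setting and the handling of multiply mapped reads: not given in the sources used here. TPM sums over the rows kept were 985805 to 987429 for siNC and 966433 to 968756 for siSTRN3. Why these sums differ was not tested. The depth in reads and its precision are unknown.

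The 13004 rows that reached 1 TPM or more in 3 or more libraries were rescaled to equal medians and tested with limma 3.58.1 in R 4.3.3 (the package data.table, version 1.17.8) on log2(TPM + 1), with a variance trend, no block, Benjamini-Hochberg adjustment over all tested rows and a threshold of 0.05. Checks on simulated data used the same fit, with row means and spreads taken from these libraries. Naming followed a fixed rule: all members, listed partners past the threshold, neighbours sharing exons, read-through or promoter, and the 3 rows most like STRN3. SLMAP, CCM2, STK3 and STK4 were named after their values were seen. The members and lists were chosen with earlier results of these data known. Coordinates, exons and coding sequences come from GENCODE release 29 (GRCh38), and promoter windows from RefSeq. Alternatives covered scale, pseudocount, filter, variance prior, block and single libraries. Python 3.11.15, pandas 2.3.3, numpy 2.4.6, Biopython 1.88 and matplotlib 3.10.9 were used. Some items are not reported here.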

Additional observations from a re-analysis of the deposited data

How the results depend on the processing

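The scale matters most. With deposited TPM, 10643 rows, 7 members and 14 of the other STRIPAK genes were called, against 2772, 3 and 4 relative to the median gene, and STRN3 had 0.24 (limma adjusted p = 0.142). Signs turned there for STRN (-0.37), STRIP2 (-0.26), PDCD10 (-0.56), STK26 (-0.35), SLMAP (-0.16), SIKE1 (-0.52), FGFR1OP2 (-0.45), CTTNBP2 (-0.42), PPP2R1B (-0.51) and PPP2CA (-0.50). Of all calls, 51.4% were higher relative to the median gene, 1.23% on the deposited scale and 35.7% with TPM over protein-coding rows alone, where STK24 (-0.17, limma adjusted p = 0.0497) joined the called members, 2 higher and 2 lower. Without a variance trend 2 other STRIPAK genes were called. Leaving out 1 library each gave 1486 to 2128 rows, 1 to 3 members, 2 to 3 other STRIPAK genes and 0.68 to 0.90 for STRN3. It changed the sign of STRIP2 (range -0.051 to 0.12; below 0 without siNC 1 or siSTRN3 3, -0.014), CTTNBP2NL (-0.15 to 0.031; above 0 without siNC 2 or siSTRN3 3, 0.0010), CTTNBP2 (-0.0048 without siSTRN3 2, to 0.14) and SIKE1 (-0.067 without siSTRN3 3, to 0.32). Shares moved by 7.73 to 9.60 points for STRN3, -1.31 to -0.76 for STK24, -3.91 to -2.58 for STK25 and 3.89 to 5.04 for STK26. Weighting by transcript length gave -1.69 points for STK25 and 3.07 for STK26. MOB4 summed with its read-through row, an alternative chosen after seeing the data, gave 0.031. The cause of these differences was not tested. STRN3 was called in 14 of 15 alternatives. Of the 134 member values over all alternatives, 115 kept direction and call.

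The labels number the replicates without saying whether same-numbered libraries were paired. Deviations of same-numbered libraries correlated at 0.057, -0.021 and -0.080 across genes, which are not independent. For differently numbered libraries the values ran from -0.073 to 0.097. With 3 libraries per group, centred within each group, these values cannot decide whether a pairing existed. With the replicate block, 1736 rows, 1 member (STRN3) and 2 other STRIPAK genes were called, with adjusted p of 0.0719 for STRN4 and 0.0519 for STK26. Depth is unknown, and 3 libraries per group limit the precision.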
